A study of Mus musculus with 12 samples.

Results

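The genes of the synaptic vesicle release machinery were examined in bulk RNA of the mouse lateral septum. The set was a fixed list of 33 genes, each matched by its symbol, and all 33 were found, 1 row each, among the 54532 genes of the expression table. They cover synapsins, synaptotagmins, vesicle membrane proteins, SNARE proteins and their regulators, Rab3 GTPases, priming factors, active zone scaffolds and endocytic proteins, 9 roles in all. The samples were 6 libraries from mice injected with CFA and 6 from mice injected with saline, all wild type and all labelled day 3. CFA commonly stands for complete Freund's adjuvant, an oil emulsion used to produce lasting inflammatory pain, and saline is its injection control. The lateral septum is a forebrain nucleus made up largely of GABAergic neurons. The labels give no strain, age or sex, and do not say whether each library is 1 animal, so a p-value reflects only the scatter among these libraries, part or all of which could be technical.

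Transmitter release works through a cycle. Synapsins tether vesicles in a reserve pool, Rab3 and RIM proteins bring vesicles to the active zone beneath the scaffolds Bassoon and Piccolo, and Munc13 proteins prime them. The vesicle SNARE synaptobrevin then pairs with syntaxin and SNAP-25 on the plasma membrane, complexin holds the assembled complex, and calcium binding to synaptotagmin triggers fusion. NSF and its adaptor alpha-SNAP take the SNARE complexes apart, and dynamin and amphiphysin recover membrane by endocytosis. Neurons in general use this machinery, but several family members are used by particular kinds of neuron.

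The libraries held between 35462000 and 39153400 reads in the CFA group and between 33557400 and 38418600 reads in the saline group, as recovered from the table. Genes listed as markers of lateral septum neurons summed to 644 to 783 FPKM in CFA libraries and 702 to 798 FPKM in saline libraries. The highest in the list were Sst and Gad2, with means over the 12 libraries of 189 and 159 FPKM. The list includes genes of GABAergic neurons in general, so its sum is not specific to the lateral septum. FPKM is a read count scaled to gene length and library depth. Some libraries stood apart by their content of other cells. Choroid plexus markers summed to at most 69.9 FPKM in CFA libraries but reached 2388 FPKM in the saline group, in saline 3. The 16 markers of striatal projection neurons were highest in CFA 1, at 660 FPKM, and lay between 254 and 403 FPKM in saline libraries. Xist was above 1 FPKM in 5 CFA and 2 saline libraries and the Y-linked Ddx3y in 1 CFA and 4 saline libraries, so sex and group were not balanced. In bulk tissue, fewer cells of a type and less RNA per cell cannot be told apart.

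Most of the machinery was abundant. Of the 33 genes, 12 averaged more than 100 FPKM over the 12 libraries, 17 averaged between 10 and 100 FPKM and 4 averaged less than 10 FPKM. Of the 32 that reached 1 FPKM in at least 6 libraries and were tested, 18 had a level within the top 10% of the 13345 genes tested, and the median member stood at percentile 92.4. The exception was Unc13b, the Munc13-2 gene, which reached 1 FPKM in 5 libraries and was not tested; its median was 0.977 FPKM in CFA and 0.895 FPKM in saline libraries. Vamp2, the synaptobrevin of most forebrain synapses, had the highest level, from 205 to 243 FPKM in CFA libraries and from 222 to 259 FPKM in saline libraries. Cplx1, Rab3a, Syt11 and Cplx2 followed, with means over the 12 libraries of 202, 201, 189 and 183 FPKM. The lowest tested level was that of Syn3, the least used synapsin, with a median of 1.23 FPKM in CFA and 1.29 FPKM in saline libraries. For 32 of the 33 genes the deposited length equals the union of all exons annotated in GENCODE M21, which is 2.57 times the longest transcript for Syn3, 2.22 times for Nsf and 2.16 times for Rims2, so the levels per length of these genes are lower than per transcript. Syn3 also shares 14.1% of its exon bases with Timp3, a gene on the opposite strand, and whether reads were counted by strand is not given in the sources used here.

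Within most families 1 paralog made up most of the FPKM, as the stacked bars by library show. Vamp2 was 95.9% of the synaptobrevin FPKM in the median CFA library and 95.2% in the median saline library, the rest being Vamp1, which serves many brainstem, spinal and fast-firing neurons. Syn1 was 68.6% of the synapsins in the median CFA library and 70.4% in the median saline library. These are shares of FPKM and not of transcripts, because the deposited length relative to the longest transcript differs between paralogs. It is 1.01 times for Syn1, 1.82 for Syn2 and 2.57 for Syn3, and 1.07 for Sv2a and 1.52 for Sv2b. The main paralog has the larger ratio for Unc13a, at 1.23 against 1.0 for Unc13c. Rab3a was 75.4% of the 3 Rab3 genes in CFA and 77.9% in saline libraries at the median, and Rab3c was 15.5% in CFA and 14.0% in saline libraries. Unc13a, the main Munc13 of forebrain synapses, was 81.9% of the Munc13 genes in CFA and 82.9% in saline libraries at the median. The complexins were close to even, with Cplx1 at 51.9% in CFA and 53.0% in saline libraries at the median. Among the SV2 proteins, glycoproteins of the vesicle membrane, Sv2a was 78.0% in the median CFA library and 80.2% in the median saline library. The Sv2b share ran from 3.90% to 17.1% over the CFA libraries and from 3.73% to 13.6% over the saline libraries.

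**Figure D1:**
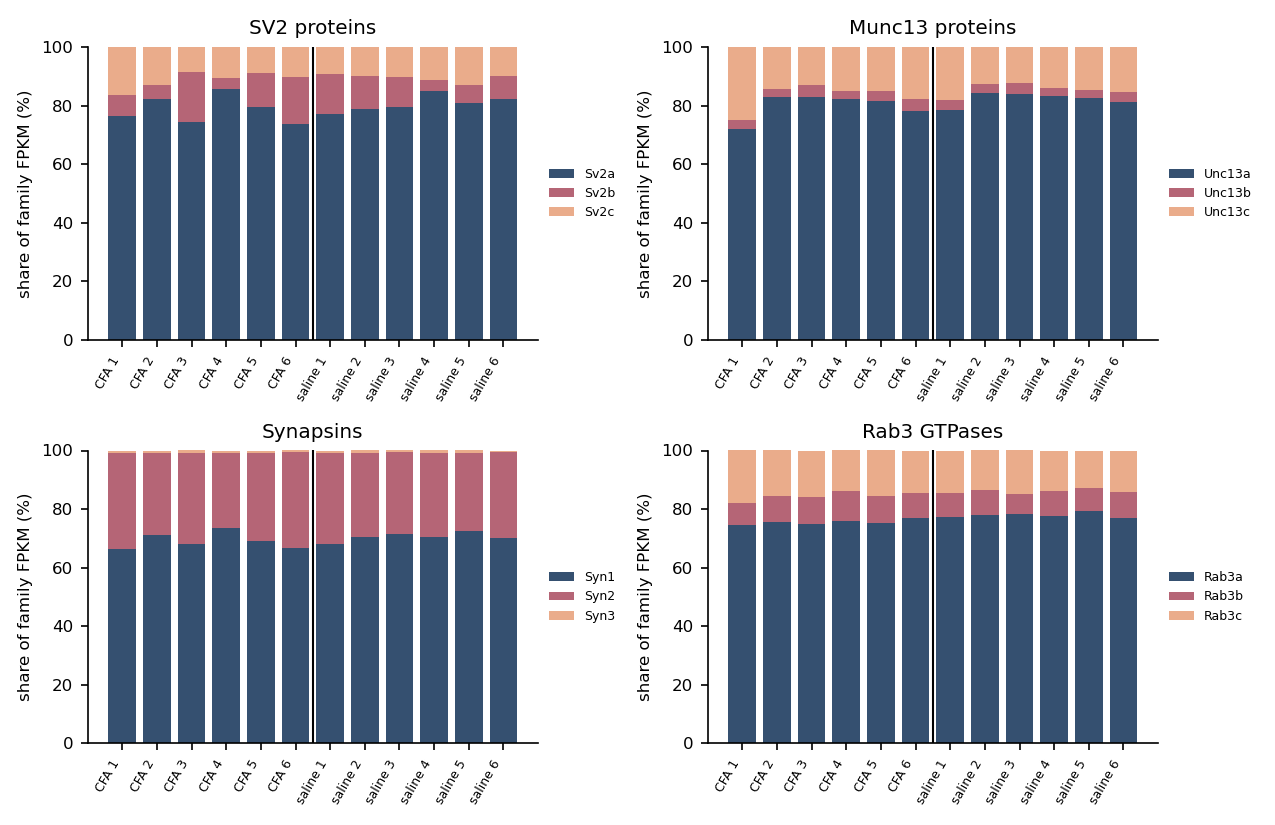
Share of each paralog in the FPKM of its family (vertical axis, percent) in the 6 CFA and the 6 saline libraries (horizontal axis, black line between the groups), for the SV2, Munc13, synapsin and Rab3 families. Sv2a, Unc13a, Syn1 and Rab3a are the lowest block in each bar and the main paralog in every library, and Sv2b takes between 3.73% and 17.1%.

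The comparison of CFA with saline asked whether the transcripts of the release machinery differed between CFA-injected and saline-injected mice. None of the 32 tested genes passed the threshold: 0 rose and 0 fell at an adjusted p of 0.05 by limma, where 0.03% of all 13345 genes tested, 4 in number, passed, 0.015% lower and 0.015% higher. The voom method on recovered reads also called 0. At an unadjusted p under 0.05 there were 4 lower genes, Syngr3, Syn1, Rab3a and Cplx1, and 0 higher genes, and voom gave 4 at that level too. Over all genes tested, 4.56% were lower and 3.11% higher at that level. For 0 of the 32 did the groups fail to overlap, against 0.292% of all genes tested with every CFA library lower and 0.202% with every CFA library higher. Log2 fold changes, computed on log2(FPKM + 1) with saline subtracted from CFA, were below 0 for 22 and above 0 for 10 of the 32. Their median was -0.05, beside a median of -0.00427 and a share below 0 of 52.0% over all genes tested. With the mean of 16 pan-neuronal markers as a covariate, 17 of the 32 were below 0 and the median was -0.00602. With Xist as a covariate, given the unequal sexes, 18 of the 32 were below 0 and the median was -0.03. As TPM, which is FPKM rescaled to the same sum in every library, 19 of the 32 members were below 0. That was a share of 59.4%, beside 35.2% of all genes tested, with medians of -0.0133 and 0.0328. On the FPKM scale the shares were 68.8% and 52.0%. The count of lower genes thus depends on the scaling, while the share among members was above that of all genes tested in both scalings. With the pan-neuronal covariate the shares were close, 53.1% of members beside 52.3% of all genes tested. With the mean of parvalbumin neuron markers as a covariate, chosen after the values were seen, they were 46.9% and 52.4%. Among genes passing a filter at 5 FPKM they were 73.3% and 57.7%, so the background itself is higher for more abundant genes.

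The intervals bound how large a difference these libraries leave room for. For 28 of the 32 genes the 95% interval lay within 0.5 of 0 on the log2 scale, a ratio of at most 1.41 of FPKM + 1, and for 20 it lay within 0.25, a ratio of at most 1.19. The widest interval belonged to Sv2b, from -0.73 to 0.88, and the next widest to the syntaxin gene Stx1a, from -0.48 to 0.64. As the plot of fold changes by role shows, the 4 SNARE regulators and the 2 endocytic genes had point values below 0, as did the 4 synaptotagmins, while Syt11 was above 0 as TPM and after quantile normalization. With a covariate some of these signs also turned: Dnm1 was at 0.03 and Amph at 0.0061 with the pan-neuronal markers, Syt7 at 0.0049 with Xist, and Syt2 at 0.02 with the parvalbumin markers. Of the 4 tested priming genes, 3 had point values above 0. Of these, Rims2 was at -0.0083 with the striatal covariate and at -0.0245 at the lowest of all alternatives. None of these values passed the threshold.

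**Figure D2:**
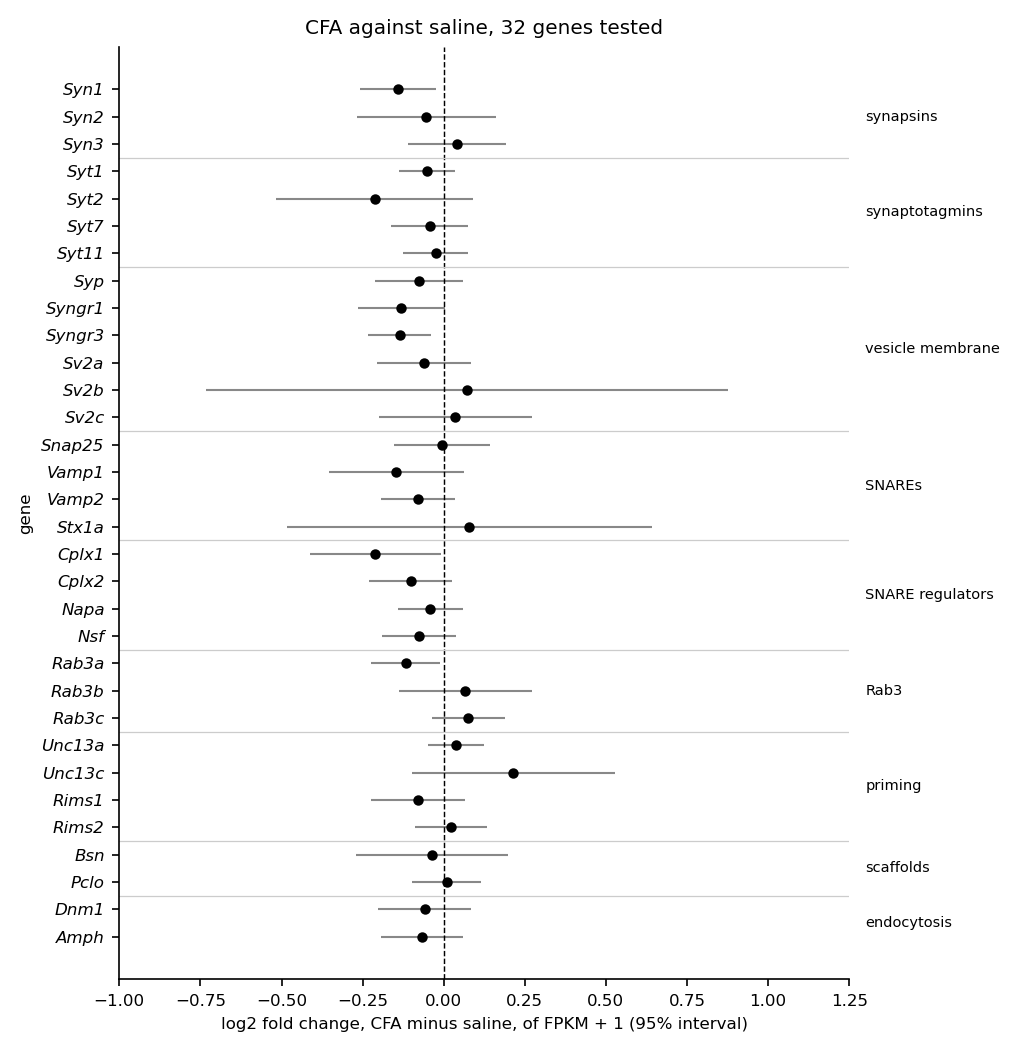
Log2 fold change of FPKM + 1, CFA minus saline (horizontal axis), with 95% intervals from limma, for the 32 genes tested (vertical axis), grouped by role. The interval lies wholly below 0 for Syngr3, Syn1, Rab3a and Cplx1, and those of Sv2b and Stx1a are the widest.

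Among vesicle proteins, the smallest p belonged to Syngr3, a synaptogyrin of the vesicle membrane (ENSMUSG00000007021, mm10 chr17:24685092-24689955, minus strand). Its level was 76.7 FPKM at the lowest, 85.2 at the median and 87.9 at the highest in CFA libraries, against 86.8, 93.7 and 98.7 FPKM in saline libraries, or 84.3 ± 4.18 FPKM in CFA and 92.7 ± 4.59 FPKM in saline libraries (mean ± SD, n = 6 each). All 6 CFA libraries lay below the saline median and 4 lay below the lowest saline library, but the ranges overlapped. The log2 fold change was -0.14 (SE 0.04; limma p = 0.00915, adjusted p = 0.429; exact permutation p = 0.00866, two-sided), and -0.11 with Xist as a covariate. Its relative Syngr1 ran from 87.3 through a median of 104 to 115 FPKM in CFA libraries and from 107 through 113 to 120 FPKM in saline libraries. Here 4 CFA libraries lay below all saline libraries and the log2 fold change was -0.13 (SE 0.06, limma adjusted p = 0.657).

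The synapsin gene Syn1 (mm10 chrX:20860511-20921004, minus strand), which tethers vesicles and is X-linked, had 99.1, 110 and 120 FPKM at the lowest, median and highest in CFA libraries, against 115, 118 and 136 FPKM in saline libraries. In 5 of 6 CFA libraries it was below the lowest saline library. The log2 fold change was -0.14 (SE 0.05; limma adjusted p = 0.574; exact permutation p = 0.0260) and was -0.10 with Xist as a covariate. Rab3a (mm10 chr8:70754679-70758677, plus strand), a vesicle GTPase, had 173, 193 and 213 FPKM in CFA libraries, against 202, 206 and 227 FPKM in saline libraries, again as the lowest, median and highest. Here too 5 of 6 CFA libraries lay below every saline library, with a log2 fold change of -0.12 (SE 0.05; limma adjusted p = 0.620; exact permutation p = 0.0260), and -0.11 with Xist as a covariate. Its relatives Rab3b and Rab3c had log2 fold changes of 0.07 and 0.08 (limma adjusted p = 0.917 and 0.779).

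Cplx1 (mm10 chr5:108518554-108550024, minus strand), a complexin that binds the SNARE complex, had 151, 187 and 217 FPKM at the lowest, median and highest in CFA libraries, against 190, 214 and 253 FPKM in saline libraries. Of the CFA libraries 3 lay below every saline library. The log2 fold change was -0.21 (SE 0.09; limma adjusted p = 0.640; exact permutation p = 0.0693), -0.11 with Xist as a covariate, and -0.05 with the mean of the parvalbumin neuron markers as a covariate, an alternative chosen after the values were seen. Cplx2 had a log2 fold change of -0.10 (limma adjusted p = 0.739). Snap25, a plasma membrane SNARE gene, had a median of 157 FPKM in CFA and 155 FPKM in saline libraries, with a log2 fold change of -0.00460 and a 95% interval from -0.15 to 0.14. Vamp2 had a log2 fold change of -0.08, with an interval from -0.19 to 0.04.

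The other members differed less or with wider error. Syp, the synaptophysin gene on the X chromosome, ran from 128 through a median of 131 to 171 FPKM in CFA libraries and from 140 through 144 to 152 FPKM in saline libraries. Of its CFA libraries 5 lay below every saline library and 1, CFA 4, lay above all of them, and the log2 fold change was -0.08 with an interval from -0.21 to 0.06. Without CFA 4, the log2 fold change of Syp was -0.14 (SE 0.03, limma adjusted p = 0.119). The calcium sensor genes Syt1 and Syt7 had log2 fold changes of -0.05 and -0.04, and Syt11, whose product does not bind calcium in the usual way, had -0.02. Sv2a had -0.06 and the second synapsin Syn2 had -0.05, with CFA and saline libraries overlapping for each. The genes of SNARE disassembly, Nsf and Napa (alpha-SNAP), had -0.08 and -0.04. Among priming genes the log2 fold change was 0.04 for Unc13a, -0.08 for the RIM gene Rims1 and 0.02 for Rims2. Pclo, the gene of the scaffold Piccolo, had a median of 12.3 FPKM in CFA and 12.3 FPKM in saline libraries and a log2 fold change of 0.01. The endocytic genes Dnm1 (dynamin) and Amph (amphiphysin) had -0.06 and -0.07. In the fit to the FPKM of all 12 libraries without a covariate, the adjusted p by limma was at least 0.739 for every member outside the 5 with the smallest p.

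Lists of neuron markers lay on both sides of 0. Of the 16 pan-neuronal markers, none of which is a member of the release machinery set, 14 were below 0 and 2 above 0. Over all genes tested, 52.0% were below 0. By limma 0 of the 16 were called, and at an unadjusted p under 0.05 there were 4 lower and 0 higher. Among all genes tested, 4.56% were lower and 3.11% higher at that level. The 16 markers summed to between 2215 and 2597 FPKM in CFA libraries and to between 2316 and 2612 FPKM in saline libraries, and none was listed at 0. With their mean as a covariate, the log2 fold change was -0.08 for Syngr3, -0.08 for Syn1, -0.07 for Rab3a and -0.07 for Cplx1. Lateral septum neuron markers had 11 of 12 below 0, with a median of -0.10. Striatal projection neuron markers had 16 of 16 above 0, with a median of 0.38. The part of neuron content in the values of the release machinery was not tested.

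**Figure D3:**
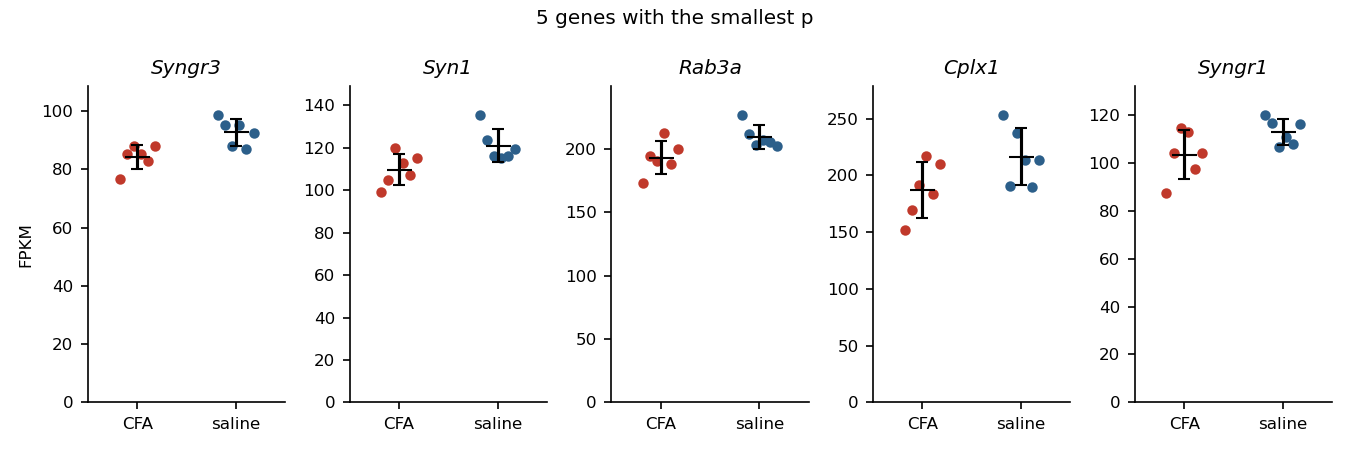
FPKM (vertical axis, from 0) of the 5 genes with the smallest p in the 6 CFA and the 6 saline libraries (points), with the mean and SD of each group (black). The groups overlap for each gene, and Syngr3 lies at 76.7 to 87.9 FPKM in CFA and 86.8 to 98.7 FPKM in saline libraries.

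Most members were steady from library to library, and a few were not. The coefficient of variation over the 12 libraries was under 10% for 21 of the 32, with a median of 8.44% beside 10.0% over all genes tested. Unc13a (4.33%), Syt1 (4.38%) and Syt11 (4.93%) were the steadiest. Sv2b varied by 51.2%, Stx1a by 37.2%, Unc13c by 28.0%, the fast calcium sensor gene Syt2 by 22.8%, Sv2c by 15.4% and Bsn by 15.3%, the 6 highest among the 32 tested. Unc13b, which was not tested, varied more than Sv2c and Bsn. The map of all members by library shows the bands of Sv2b and Stx1a, which are high and low in the same libraries within both groups.

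**Figure D4:**
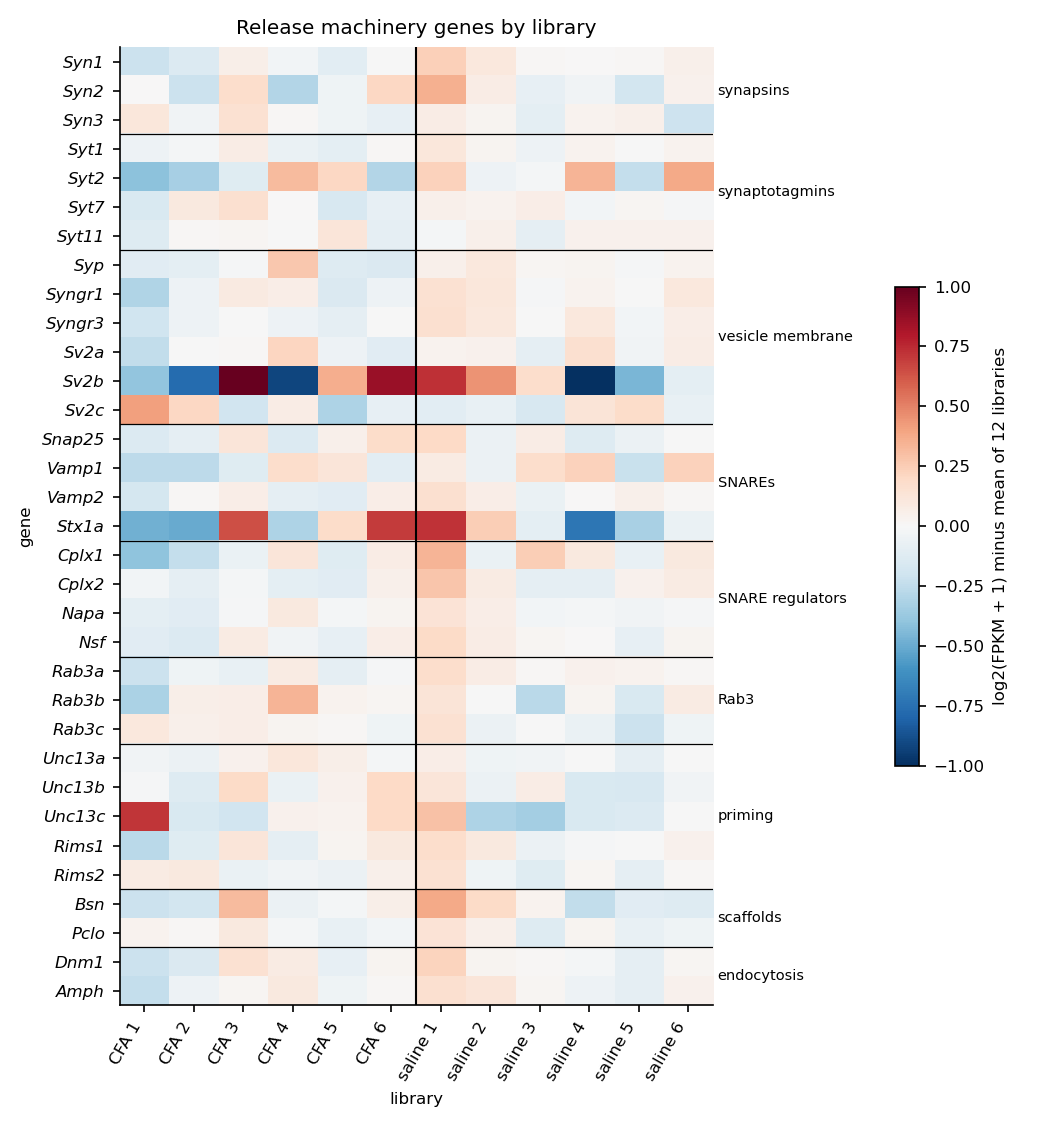
Log2(FPKM + 1) of each of the 33 genes (rows, by role) minus its mean over the 12 libraries (colour scale, clipped at 1 either way), in the 6 CFA and the 6 saline libraries (columns, black line between the groups). Sv2b and Stx1a are highest in CFA 3, CFA 6 and saline 1. They are low in CFA 1, CFA 2, CFA 4, saline 4 and saline 5, and Unc13c is highest in CFA 1.

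The promoters of Sv2b, Stx1a, Unc13c and Syt2, the 4 most variable members, are shown. By Pearson's r their levels followed marker lists of different kinds of neuron, as given after them. By Spearman's rho those of Stx1a and Unc13c did not pass after adjustment. RefSeq promoter windows on GRCm38.p6, the build also called mm10, cover 250 bases before and 50 after the annotated start, 5′ to 3′ on the gene's strand, and 27 of the 33 genes were matched. Where a gene had several windows, the one nearest the deposited gene start was used: chr7:75309213-75309512 on the minus strand for Sv2b, chr5:135023232-135023531 on the plus strand for Stx1a, chr9:73968988-73969287 on the minus strand for Unc13c and chr1:134646362-134646661 on the plus strand for Syt2. Capitals mark matches of the GC box GGGCGG, the core letters bound by Sp1, on either strand.
Sv2b: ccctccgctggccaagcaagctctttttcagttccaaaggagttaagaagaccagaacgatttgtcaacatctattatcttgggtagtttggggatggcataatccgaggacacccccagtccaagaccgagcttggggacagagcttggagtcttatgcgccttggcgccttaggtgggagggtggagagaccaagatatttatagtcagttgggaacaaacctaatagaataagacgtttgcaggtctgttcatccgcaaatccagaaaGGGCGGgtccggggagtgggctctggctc
Stx1a: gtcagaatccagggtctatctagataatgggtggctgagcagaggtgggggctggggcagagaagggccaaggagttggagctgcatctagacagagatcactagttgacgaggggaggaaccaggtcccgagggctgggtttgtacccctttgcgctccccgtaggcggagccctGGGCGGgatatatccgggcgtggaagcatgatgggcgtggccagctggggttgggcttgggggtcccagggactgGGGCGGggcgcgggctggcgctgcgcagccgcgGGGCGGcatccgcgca
Unc13c: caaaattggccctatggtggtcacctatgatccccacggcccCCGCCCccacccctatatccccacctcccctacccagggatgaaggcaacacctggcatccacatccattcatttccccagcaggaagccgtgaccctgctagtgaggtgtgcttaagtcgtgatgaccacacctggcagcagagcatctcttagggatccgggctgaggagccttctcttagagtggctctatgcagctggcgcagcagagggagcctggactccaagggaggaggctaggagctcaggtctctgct
Syt2: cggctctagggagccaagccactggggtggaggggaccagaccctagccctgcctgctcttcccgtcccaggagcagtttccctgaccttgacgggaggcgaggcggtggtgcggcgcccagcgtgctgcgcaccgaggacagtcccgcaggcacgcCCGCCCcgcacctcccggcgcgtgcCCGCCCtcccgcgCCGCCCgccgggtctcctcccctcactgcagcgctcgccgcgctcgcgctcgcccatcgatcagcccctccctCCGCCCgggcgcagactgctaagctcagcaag
The GC box was found once for Sv2b and Unc13c, at 3 places for Stx1a and at 4 for Syt2. It was present in 22 of the 27 member windows, or 81.5%, beside 35.7% of all 32851 windows of the table. The 32851 include every window of a gene that has several, whereas each member gave only 1. For each motif the 2 shares are therefore of unlike sets, and no enrichment was tested. The letters TGACGTCA, a CREB site, were in 2 of the 27, those of Syn1 and Napa, beside 1.79% of all windows. The E-box letters CAGATG were in 1, that of Pclo, beside 17.2% of all windows. All motifs were searched on both strands, and none of them contains another. A match is a description of letters in the window and was not related to the levels.

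Sv2b, the SV2 paralog best known from cortical and hippocampal excitatory neurons, ranged from 7.03 through a median of 14.5 to 30.9 FPKM in CFA libraries and from 6.50 through 14.6 to 24.1 FPKM in saline libraries. The groups overlapped almost fully. The highest library had 4.76 times the level of the lowest, and the fold change between groups was 0.07 (log2, SE 0.37, limma adjusted p = 0.978). Stx1a, one of the syntaxin-1 genes of the plasma membrane SNARE, ranged from 13.1 through 18.4 to 31.3 FPKM in CFA libraries and from 11.1 through 17.8 to 31.8 FPKM in saline libraries. Its fold change was 0.08 (log2, SE 0.26, limma adjusted p = 0.969).

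Both followed the markers of cortical and hippocampal excitatory neurons. The mean log2(FPKM + 1) of the 10 tested markers fell into 2 clusters, 8 libraries (3 CFA, 5 saline) between 3.84 and 4.58 and 4 libraries (CFA 1, CFA 2, CFA 4 and saline 4) between 3.06 and 3.26. Slc17a7, the vesicular glutamate transporter VGLUT1 and a marker of that list, ranged from 4.70 to 78.7 FPKM in CFA libraries and from 2.38 to 69.7 FPKM in saline libraries. Relations were therefore computed within the 8 libraries, a choice made after the values were seen. For Sv2b, Pearson's r was 0.961 (exact permutation p = 2.73e-04, adjusted p = 0.00409 over 30 relations) and Spearman's rho was 0.952 (exact permutation p = 0.00114, adjusted p = 0.0171). For Stx1a, r was 0.944 (exact permutation p = 0.00149, adjusted p = 0.0112) and rho was 0.881 (exact permutation p = 0.00724, adjusted p = 0.0543). Without the 2 libraries farthest from the median of the list, saline 5 and saline 6, r was 0.909 for Sv2b and 0.888 for Stx1a. In the 4 other libraries Sv2b lay between 6.50 and 10.5 FPKM, against 10.0 to 30.9 FPKM in the 8, and Stx1a between 11.1 and 15.1 FPKM, against 14.9 to 31.8 FPKM in the 8. With the list mean as a covariate, chosen after the values were seen, the standard error of the CFA difference narrowed to 0.12 for Sv2b and 0.10 for Stx1a, and the log2 fold changes were 0.21 (limma adjusted p = 0.637) and 0.18 (limma adjusted p = 0.631). The part of cortical or hippocampal tissue in these values was not tested.

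For Bsn and Sv2c the call depended on which libraries entered. Within the 8 libraries the relation to this list did not pass after adjustment, and over all 12, with the clusters joined, it did: r was 0.823 for Bsn and -0.815 for Sv2c (permutation adjusted p = 0.00695 for each). For Bsn, whose product is a scaffold of the active zone, r with the same list was 0.808 within the 8 libraries (exact permutation p = 0.0192, adjusted p = 0.0822) and rho was 0.833 (exact permutation p = 0.0154, adjusted p = 0.0769), with r at 0.631 without saline 5 and saline 6. Bsn ran from 19.3 through 21.9 to 28.3 FPKM in CFA libraries and from 18.9 through 22.0 to 29.6 FPKM in saline libraries, so the groups overlapped fully. Sv2c, the SV2 paralog enriched in the basal ganglia, had an r of -0.60 within the 8 libraries (exact permutation p = 0.104, adjusted p = 0.346), and its rho was -0.67 (exact permutation p = 0.0831, adjusted p = 0.312). Within the 8, its r was -0.0463 without saline 5 and saline 6, and within the 6 CFA libraries, which span both clusters, it was -0.88. It ranged from 14.3 through 17.9 to 24.2 FPKM in CFA libraries and from 16.0 through 17.0 to 20.5 FPKM in saline libraries. Its r with the striatal list over the 12 libraries was 0.191 (permutation p = 0.551, adjusted p = 0.787) and rho was -0.154 (permutation p = 0.636, adjusted p = 0.908).

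Syt2, the synaptotagmin of fast-spiking and many hindbrain neurons, followed markers of parvalbumin neurons. It ranged from 4.27 through 5.07 to 7.72 FPKM in CFA libraries and from 4.95 through 6.54 to 8.11 FPKM in saline libraries, with 3 CFA libraries below every saline library. The log2 fold change was -0.21 (SE 0.14, limma adjusted p = 0.774), and 0.02 with the parvalbumin list mean as a covariate. Over the 12 libraries r with the 7 tested parvalbumin markers was 0.849 (permutation p = 1.2e-04, adjusted p = 0.0036) and rho was 0.888 (permutation p = 3.2e-04, adjusted p = 0.0096). It was 0.799 within the CFA and 0.855 within the saline libraries, and 0.874 without CFA 1 and saline 1, the 2 libraries farthest from the median. With the pan-neuronal list r was 0.725 (permutation p = 0.00832, adjusted p = 0.0499) and rho was 0.811 (permutation p = 0.00212, adjusted p = 0.0212). That r was 0.409 within the CFA and 0.933 within the saline libraries, and 0.622 without the same 2 libraries. As TPM it was 0.512 (permutation adjusted p = 0.341), which no longer passed. With 10 markers of medial septum cholinergic neurons r was 0.689 (permutation p = 0.0145, adjusted p = 0.0724). The rho with that list was 0.692 (permutation p = 0.0149, adjusted p = 0.0769), so neither passed. With the striatal list r was -0.349 (permutation p = 0.269, adjusted p = 0.673). The parvalbumin markers themselves had 6 of 7 below 0 between groups, and summed to between 88.5 and 118 FPKM in CFA libraries and between 105 and 124 FPKM in saline libraries. Pvalb had a median of 8.37 FPKM in CFA and 9.90 FPKM in saline libraries. Vamp1, the synaptobrevin paralog of many of the same neurons, ranged from 9.03 through 10.1 to 12.6 FPKM in CFA libraries and from 9.28 through 12.2 to 13.1 FPKM in saline libraries (log2 fold change -0.15, limma adjusted p = 0.776).

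Unc13c, the Munc13-3 gene known best from the cerebellum, ranged from 3.74 through 4.56 to 7.90 FPKM in CFA libraries and from 3.29 through 3.90 to 5.63 FPKM in saline libraries. The highest value was that of CFA 1, the library with the most striatal marker RNA. The log2 fold change was 0.22 (SE 0.15, limma adjusted p = 0.779), 0.09 without CFA 1 and 0.04 with the mean of the striatal markers as a covariate. Over the 12 libraries r with the 16 striatal markers was 0.867 (permutation p = 6.6e-04, adjusted p = 0.0066), while rho was 0.671 (permutation p = 0.0207, adjusted p = 0.0886). It was 0.863 within the CFA and 0.830 within the saline libraries, and 0.666 without CFA 1 and CFA 6, so the size of the relation rests in part on those libraries. The striatal markers had 16 of 16 log2 fold changes above 0 and 0 called by limma, and summed to between 254 and 660 FPKM in CFA and between 254 and 403 FPKM in saline libraries.

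**Figure D5:**
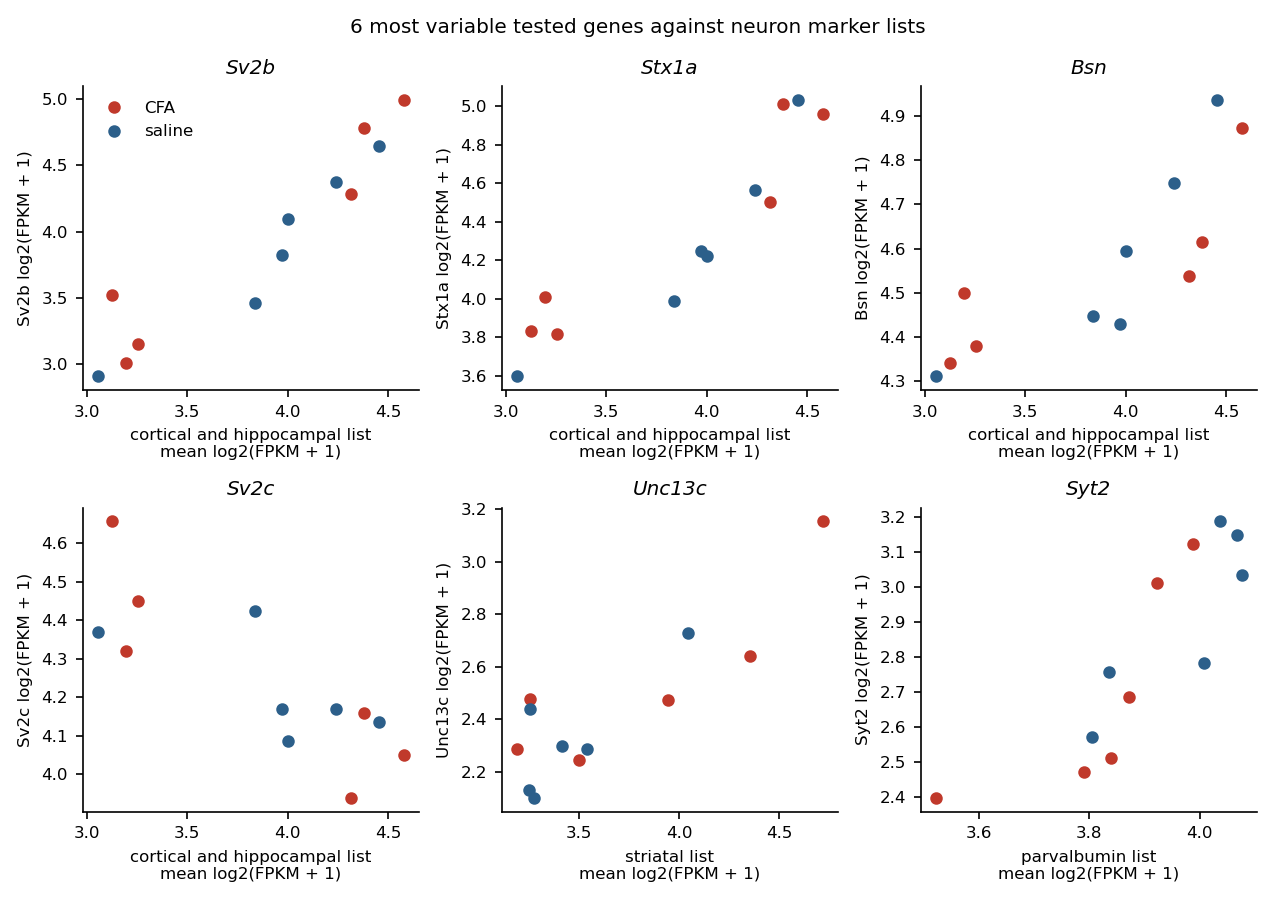
Log2(FPKM + 1) of the 6 members with the highest coefficient of variation among the 32 tested (vertical axes) against the mean log2(FPKM + 1) of a neuron marker list (horizontal axes) in the 6 CFA (red) and the 6 saline (blue) libraries, 1 point a library. By Pearson's r, Sv2b and Stx1a follow the cortical and hippocampal list, Unc13c the striatal list and Syt2 the parvalbumin list. On the cortical and hippocampal list 4 libraries lie at 3.06 to 3.26 and 8 at 3.84 to 4.58. By Spearman's rho 2 relations did not pass: Stx1a within the 8 libraries (exact permutation, adjusted p = 0.0543) and Unc13c (permutation adjusted p = 0.0886).

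The wider machinery did not pass the threshold either. Of 94 further genes of vesicle release, in 8 lists of other synaptotagmins, vesicle proteins, SNAREs and their regulators, Rab3 cycle, priming, endocytic, transmitter loading and presynaptic calcium channel genes, 91 were tested. By limma 0 passed, and voom called 0. At an unadjusted p under 0.05 by limma, 4 of 91 were lower and 0 higher, beside 4.56% and 3.11% of all genes tested. Log2 fold changes were below 0 for 57 of 91, a share of 62.6% beside 52.0% of all genes tested, with a median of -0.02. As TPM, 32 of 91 were below 0, a share of 35.2%, the same as the 35.2% of all genes tested under that scaling, and after quantile normalization 42 of 91 were. By list, the number below 0 was 8 of 13 other synaptotagmins, 3 of 6 vesicle membrane genes, 9 of 12 SNAREs and regulators, 4 of 8 Rab3 cycle genes, 9 of 12 priming and active zone genes, 8 of 18 endocytic genes, 13 of 14 transmitter loading genes and 3 of 8 calcium channel genes. Slc17a7 and Slc18a3 of the transmitter loading list are also among the cortical and the cholinergic neuron markers. Atp6v0c, the proton channel subunit of the vacuolar ATPase that acidifies vesicles, had 15.2, 15.9 and 17.0 FPKM at the lowest, median and highest in CFA libraries, against 16.9, 18.3 and 18.9 FPKM in saline libraries (log2 fold change -0.17, SE 0.04, limma adjusted p = 0.206). Slc32a1, the vesicular GABA transporter, had a median of 130 FPKM in CFA and 146 FPKM in saline libraries (log2 fold change -0.17, limma adjusted p = 0.677). Cacna1a, the pore of P/Q-type calcium channels, had a median of 11.7 FPKM in CFA and 13.0 FPKM in saline libraries (-0.11 on the log2 scale, limma adjusted p = 0.583). The other 5 of the 8 wider genes with the smallest p had log2 fold changes of -0.08 for Snap47, a SNAP-25 relative, -0.09 for Svop, an SV2-related protein gene, 0.10 for Picalm, a clathrin adaptor gene, -0.10 for Ppfia3 (liprin-alpha-3) and -0.19 for Cacna2d2, a calcium channel subunit gene. Their adjusted p by limma lay between 0.632 and 0.683.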

How the data were processed

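The deposited FPKM values per gene were made by the authors; HISAT2 2.0.5 and the build mm10 are named in the submitters' processing notes, and the sources used here do not give the counting tool or its strand setting. With the column of gene length in the deposited table, FPKM were turned back into reads and rounded, giving 33557400 to 39153400 reads a library. Of the values with few reads, 100% came within 0.01 of a whole number before rounding. Values with many reads, such as those of the abundant members, were not part of that check. A further 6 columns of per-sample values matched no sample and were not used. Genes reaching 1 FPKM in at least 6 of the 12 libraries were tested, 13345 in all, on log2(FPKM + 1) with limma 3.58.1 in R 4.3.3 (empirical Bayes with trend, Benjamini-Hochberg adjustment, threshold 0.05). Adding 1 to the FPKM before the log2 step understates the change of low genes. Exact permutation tests ran over every assignment of 6 of the 12 libraries and could give a p of 0.00216 at the smallest. Correlations used 100000 resamples over 12 libraries, or exact permutation over 8, and were adjusted over 30 relations. The limma fit was tested on simulated data.

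Replicate numbers were compared across groups and were not used as pairs. The members and the other gene lists were chosen with earlier results of these data known. Genes were named in full if they were among the 5 members with the smallest p, the 6 tested members with the highest coefficient of variation, or the 8 wider genes with the smallest p, and others by role. Alternatives covered the pseudocount, filter, scaling, moderation, voom on recovered reads, the replicate block, covariates and libraries left out. The cortical and parvalbumin covariates and the restriction to 8 libraries were chosen after the data were seen. Python 3.11.15, pandas 2.3.3, numpy 2.4.6, scipy 1.17.1 and matplotlib 3.10.9 were used for the rest.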

Additional observations from a re-analysis of the deposited data

Results flagged for a closer look

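In 66 groups of 6 libraries, 3 single libraries stood far from the others of their group. Chance gives about 1 in 20 groups, so a count of 3 in 66 is near what chance gives. The 3 are listed as a description only. Syp, the synaptophysin gene, had 170.7 FPKM in CFA 4, where the next CFA library had 139.9 FPKM and the lowest 127.8 FPKM, so the gap was 0.717 of the range. Unc13c had 7.90 FPKM in CFA 1, where the next CFA library had 5.24 FPKM and the lowest 3.74 FPKM, a gap of 0.640 of the range. Dnm1, the neuronal dynamin gene, had 189.9 FPKM in saline 1, where the next saline library had 166.4 FPKM and the lowest 153.4 FPKM, a gap of 0.643 of the range. CFA 1 was also the library with the highest sum of striatal markers, 660 FPKM.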

How the results depend on the processing

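No member passed the threshold under any of the 29 alternatives. Of 926 recomputed fold changes 0 passed, and 15 members kept their sign throughout. The smallest adjusted p by limma was 0.119, that of Syp without CFA 4. Members below 0 numbered between 15 (parvalbumin covariate) and 26 (without saline 3 and 5), and 19 to 25 with 1 library left out, with medians from -0.0805 to -0.0262. Over all genes the count of calls, 4, was 2 without a filter or without trend, 1 with the pan-neuronal, Xist or parvalbumin covariate and 13 with the striatal covariate. Leaving out 1 library gave 1 to 11 calls: 10 without CFA 1, 11 without saline 3, 2 without saline 2 or saline 4, and 1 without CFA 6 or saline 5. The replicate block gave 1 call over all genes and 0 among members; same-numbered libraries correlated between -0.0118 and 0.159, and 3 of 6 CFA libraries correlated best with their own number. Wider genes below 0 numbered 32 as TPM, against 57. The relation of Syt2 to pan-neuronal markers was 0.512 as TPM (permutation adjusted p = 0.341). Over all 12 libraries, clusters joined, r with the cortical list was -0.815 for Sv2c and 0.823 for Bsn (permutation adjusted p = 0.00695 for each). The cause of these shifts was not tested. Depth was similar between libraries, and counts near 1 FPKM, as for Unc13b and Syn3, limit what can be seen of those genes.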
